A study of Mus musculus with 6 samples.

Results

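The genes described here are 40 cell cycle and replication genes, 13 of DNA replication, 24 of mitosis and 3 regulators of the first gap phase (G1). Their members were the probes whose symbol in the array's annotation was 1 of these 40 names. Of the 46619 probes on the array 73 carried such a symbol, and they covered 38 of the 40 genes. Ccnb1 and Cenpf had no probe under their symbol. Of the 73 probes 44 were above background on at least 3 of the 6 arrays and were tested, and they represented 30 genes.

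The study compared medullary thymic epithelial cells (mTECs) with high MHC class II from wild-type C57Bl/6 mice with those from Aire knockout mice of the same strain, with 3 arrays of each. Aire is a transcriptional regulator that lets these cells express genes of many other tissues. Wild type 1 (female), wild type 2 (male) and knockout 1 (male) were hybridised on beadchip 1, and wild type 3 (female), knockout 2 (female) and knockout 3 (male) on beadchip 2. The date in the labels is earlier for wild type 1 and 2 than for the remaining 4 arrays. The labels name neither the knockout allele nor the age of the mice, and do not say whether a sample was 1 mouse or a pool. A p-value sets the genotype difference against the spread between these samples, which may or may not be single mice.

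Before a cell divides, the MCM complex is loaded onto DNA by Cdc6 and Cdt1 and becomes the helicase of the replication fork, while ribonucleotide reductase and thymidylate synthase supply the building blocks. In mitosis, cyclin-bound Cdk1, the Aurora and Polo-like kinases, the centromere proteins and the Cdc20-bound anaphase-promoting complex separate the chromosomes. Many genes of the first set are known targets of E2F factors, and many of the second are regulated through CCAAT boxes and a CHR element near the start of the gene. Among mTECs, most Aire-expressing cells have been described as no longer dividing, with the cycling cells of the lineage counted among their precursors.

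The promoters of 6 of these genes are shown because they carry the short motifs for which the replication and mitosis genes are known. They cover 2 replication genes, 3 mitosis genes that were lower in the knockout and Cdk1, a mitosis gene that did not pass the test. Each is the 200 bases before the gene start in RefSeq's annotation of GRCm38.p6, read 5′ to 3′ on the gene's strand. The positions are chr8:75109309-75109508 on the plus strand for Mcm5 and, on the minus strand, chr1:128359706-128359905 for Mcm6, chr4:118437344-118437543 for Cdc20, chr7:135716380-135716579 for Mki67, chr11:99024190-99024389 for Top2a and chr10:69352913-69353112 for Cdk1. Capitals mark the E2F letters (TTTCCCGC, TTTCGCGC, TTTGCCGC or TTTGGCGC), the CHR letters (TTTGAA) and the CCAAT letters (CCAAT), on either strand. In Mcm5 and Mcm6 a pair of E2F matches on opposite strands overlap and appear as 1 longer run.
Mcm5: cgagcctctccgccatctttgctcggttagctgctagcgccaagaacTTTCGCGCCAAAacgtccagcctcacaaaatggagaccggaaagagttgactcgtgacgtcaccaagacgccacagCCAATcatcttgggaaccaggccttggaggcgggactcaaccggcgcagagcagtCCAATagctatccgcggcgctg
Mcm6: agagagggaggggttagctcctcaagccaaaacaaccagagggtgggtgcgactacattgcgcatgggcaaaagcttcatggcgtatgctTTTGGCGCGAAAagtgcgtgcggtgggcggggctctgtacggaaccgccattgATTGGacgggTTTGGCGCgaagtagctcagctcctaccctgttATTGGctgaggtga
Cdc20: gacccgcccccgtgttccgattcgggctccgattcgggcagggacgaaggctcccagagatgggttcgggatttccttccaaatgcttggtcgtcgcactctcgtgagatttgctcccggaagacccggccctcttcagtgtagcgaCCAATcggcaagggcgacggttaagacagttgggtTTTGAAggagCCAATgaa
Mki67: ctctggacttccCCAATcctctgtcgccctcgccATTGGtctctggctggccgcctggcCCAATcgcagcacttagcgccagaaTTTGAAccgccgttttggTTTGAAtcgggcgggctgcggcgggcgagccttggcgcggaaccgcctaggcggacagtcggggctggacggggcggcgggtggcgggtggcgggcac
Top2a: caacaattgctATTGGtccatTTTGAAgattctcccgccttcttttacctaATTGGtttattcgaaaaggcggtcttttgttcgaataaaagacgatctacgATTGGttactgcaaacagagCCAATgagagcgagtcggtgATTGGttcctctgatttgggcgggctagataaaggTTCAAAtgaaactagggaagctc
Cdk1: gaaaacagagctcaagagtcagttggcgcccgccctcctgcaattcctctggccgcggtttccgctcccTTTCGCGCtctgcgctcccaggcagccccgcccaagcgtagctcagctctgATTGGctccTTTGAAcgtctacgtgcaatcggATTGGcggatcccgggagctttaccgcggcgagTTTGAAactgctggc

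Windows of 250 bases before to 50 after the start were found for 31 of the 40 genes. An E2F match lay in 6 of 11 replication genes (Cdc6, Cdt1, Mcm3, Mcm5, Mcm6 and Mcm7), in 1 of 18 mitosis genes (Cdk1) and in none of the 2 G1 genes with a window. Among all 27025 genes with a window, 2.60% held one. The CHR letters lay in 13 of 18 mitosis genes and in 1 of 11 replication genes (Mcm2), against 20.2% of all genes. CCAAT lay in 16 of 18 mitosis and 8 of 11 replication genes, against 41.1%. Both CHR and CCAAT lay in 13 of 18 mitosis genes and 1 of 11 replication genes, against 8.97% of all genes. Besides the pairs in Mcm5 and Mcm6, an E2F match overlapped a CCAAT match in Mcm7, and a pair of CCAAT matches overlapped in Ube2c. A match is a description of letters and does not show that a factor binds there.

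**Figure D1:**
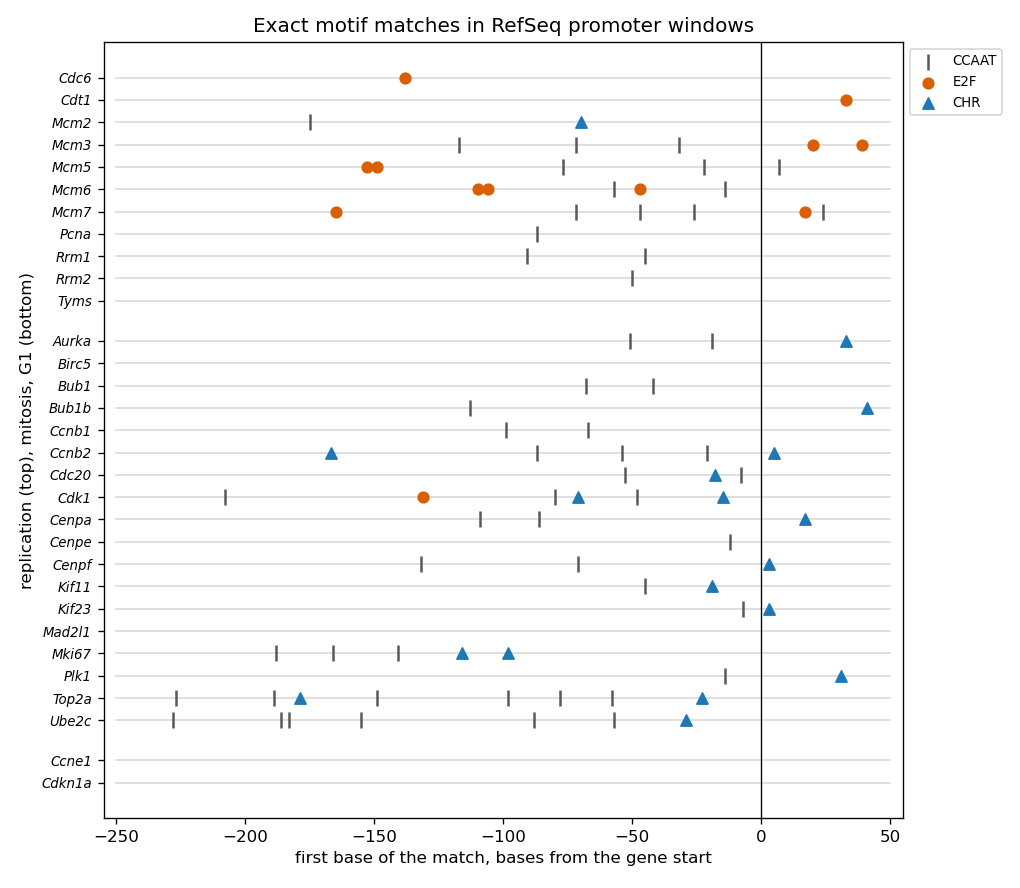
Exact motif matches in the RefSeq promoter windows of 31 genes, with the distance of the match's first base from the gene start on the horizontal axis and 1 line per gene (Mcm7 and Cdkn1a have 2 windows each, drawn on 1 line). E2F matches (circles) lie mostly among the replication genes at the top, and CHR matches (triangles) among the mitosis genes.

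Genes with and without a motif had similar median changes on the arrays. The 9 tested mitosis genes with the CHR letters had a median log2 change (knockout minus wild type) of −0.89, and 7 of them were lower. The 3 without had a median of −0.87, and 2 of them were lower. Among replication genes the median was −0.60 for the 6 with an E2F match, 4 of them lower, and −0.61 for the 4 without, 3 of them lower. These splits are small and were not tested.

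Values are normalized log2 values as deposited. A change is the knockout mean minus the wild-type mean on this scale, and a fold is 2 to the power of that change. Background appears to remain in the values, which would make the folds of dim genes too small. The transform of the values is not stated, so the folds hold only if it is a plain log2. Called means an adjusted p under 0.05 in limma's fit, with Benjamini-Hochberg adjustment over all 19546 tested probes. Each gene stands for its tested probe with the highest mean. Correlations between arrays over all tested probes were 0.984 to 0.994 within a genotype and 0.909 to 0.935 between genotypes. The genotype labels were borne out by Aire, which fell from 13.53 ± 0.13 to 10.22 ± 0.19 (SD, n = 3 arrays each; change −3.31, SE 0.12, limma adjusted p = 4.69e-08). All 13 mTEC marker genes with a probe were above background on every array.

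Across the 30 tested genes, 22 were lower in the knockout, 0 were higher and 8 did not pass. Of all 11782 tested named genes 23.1% were lower and 18.3% higher. Lower genes were 8 of 11 in replication, 12 of 16 in mitosis and 2 of 3 among the G1 regulators. The median change was −0.60 for the 30 genes against 0.02 for all named genes, and 29 of the 30 were above background on every array. All 30 changes were negative, as were 47.6% of those of all named genes. In 20 of the 30 genes every knockout array lay below every wild-type array, as was the case for 27.2% of all named genes. In bulk RNA, fewer cycling cells and less of these transcripts per cell cannot be told apart.

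The number of calls depended on the scaling. When the median level of 23 housekeeping genes was set equal on all arrays, 11 members were lower (13.6% of all named genes). Of the 30 changes 25 were negative (27.3% of all named genes), and Cdkn1a, Bub1b, Mad2l1, Tpx2 and Cdc6 turned positive. The 11 were Mcm5, Rrm2, Aurka, Birc5, Cdc20, Cenpa, Cenpe, Kif23, Mki67, Plk1 and Top2a. This scaling moved the median change of all named genes to 0.28 and that of the members to −0.35 and, since it adds 1 offset to every gene, leaves their distance (−0.63) fixed. The signs turned by this scaling come from this offset alone.

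**Figure D2:**
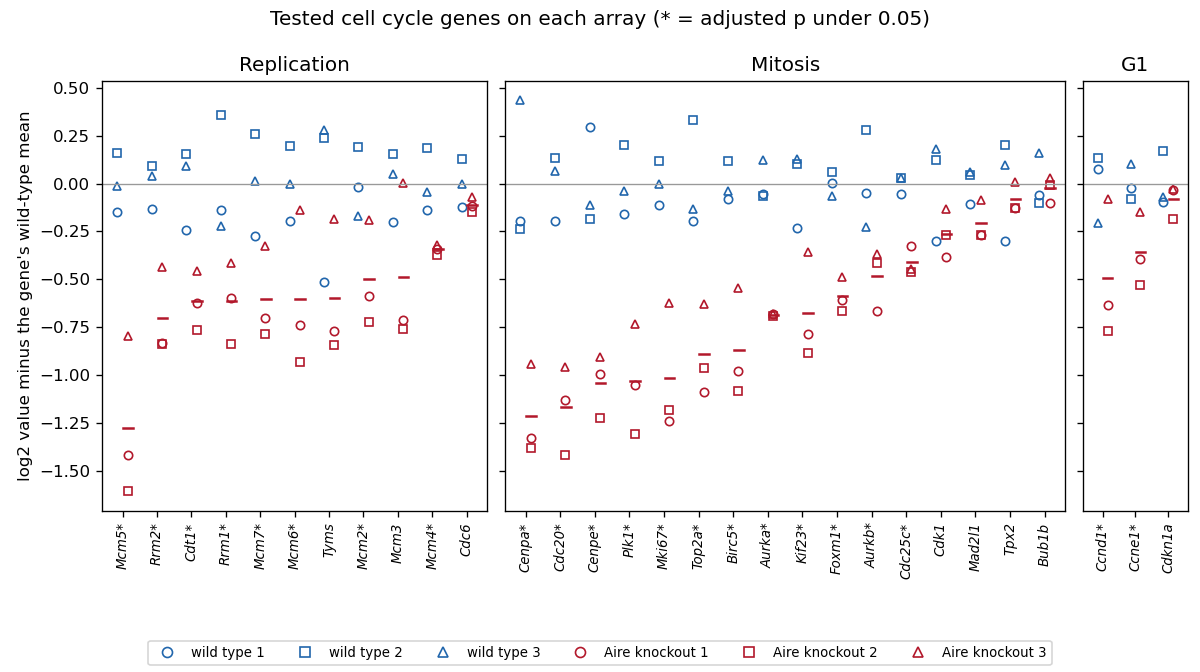
Log2 value of each of the 30 tested genes on each array after subtraction of the gene's wild-type mean, for replication, mitosis and G1 genes. Blue and red symbols are wild-type and knockout arrays 1 to 3, red bars are knockout means, and an asterisk marks an adjusted p under 0.05. Knockout 3 (red triangles) is the highest knockout array in 28 of 30 genes.

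Of the 6 subunits of the MCM helicase, 5 fell and Mcm3 did not pass. With beadchip as a block Mcm5 and Mcm7 kept their call, and Mcm6 (limma adjusted p = 0.0515), Mcm2 (0.0598) and Mcm4 (0.0641) did not. Mcm5 had the largest change of all the members. Mcm5 read 10.94, 11.24 and 11.07 in wild type 1, 2 and 3, and 9.67, 9.48 and 10.29 in knockout 1, 2 and 3, the order in which values are given throughout. Every knockout array lay below every wild-type array, and knockout 3 lay nearest to them. Mcm5 was 2.42-fold lower, at 11.09 ± 0.15 against 9.81 ± 0.42 (SD, n = 3; change −1.27, SE 0.19, limma adjusted p = 0.000588).

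Mcm7 read 9.18, 9.71 and 9.47 in wild type and 8.75, 8.67 and 9.13 in the knockout. The groups did not overlap, but knockout 3 came close to wild type 1. Its change was −0.60 (SE 0.16, limma adjusted p = 0.0155), and a second probe was lower too (−0.44, adjusted p = 0.023). Mcm2 read 9.52, 9.73 and 9.37 in wild type and 8.95, 8.82 and 9.35 in the knockout. Knockout 3 was just under the lowest wild-type array. The change of Mcm2 was −0.50 (SE 0.15, limma adjusted p = 0.027).

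Mcm4 read 10.99, 11.31 and 11.08 in wild type and 10.78, 10.75 and 10.80 in the knockout. Its knockout arrays were nearly equal, without the high value on knockout 3 seen in the other subunits. The change was −0.34 (SE 0.11, limma adjusted p = 0.0316), the smallest of the 5 subunits that fell. Mcm6, whose promoter is shown above, read 9.32, 9.71 and 9.51 in wild type and 8.78, 8.59 and 9.38 in the knockout. Here the groups overlapped, since knockout 3 lay above wild type 1. Mcm6 changed by −0.60 (SE 0.19, limma adjusted p = 0.0332). Mcm3 had a change of −0.49 that did not pass (limma adjusted p = 0.0729), again with knockout 3 inside the wild-type range.

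Among the licensing factors, which load the helicase, Cdt1 fell. Cdt1 read 8.53, 8.92 and 8.86 in wild type and 8.15, 8.01 and 8.31 in the knockout, with no overlap. The change was −0.62 (SE 0.13, limma adjusted p = 0.00507). Cdc6 was above background on only 3 arrays and did not pass (−0.11, limma adjusted p = 0.397). Gmnn, the inhibitor of Cdt1, was above background on no array.

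Of the genes of nucleotide supply and the sliding clamp, both subunits of ribonucleotide reductase fell. Rrm2, the regulatory subunit, read 9.03, 9.25 and 9.20 in wild type and 8.33, 8.32 and 8.73 in the knockout. The groups did not overlap. Rrm2 was 1.63-fold lower (change −0.70, SE 0.13, limma adjusted p = 0.00237). Rrm1, the large subunit, read 9.52, 10.01 and 9.44 in wild type and 9.06, 8.82 and 9.24 in the knockout. Wild type 2 stood highest, and the groups did not overlap. Rrm1 changed by −0.62 (SE 0.17, limma adjusted p = 0.016). Tyms, thymidylate synthase, had values of −0.60 and −0.49 on its 2 brightest probes, neither of which passed (limma adjusted p = 0.0657 and 0.0972). Pcna, the sliding clamp, had 1 probe that read 6.32, 6.60 and 6.67 in wild type and 6.50, 6.59 and 6.77 in the knockout. That probe was not well above background on any array, so no change can be given for Pcna.

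Of the 8 replication calls 5 ended in at least 1 of the fits that left out an array, and the changes of these genes were negative in all 6 fits. Leaving out wild type 2 or knockout 1 left 4 of the 8 calls in this list, and leaving out knockout 2 left 3, whereas without wild type 1, wild type 3 or knockout 3 the count was 9, 6 and 9. Mcm5, Rrm2 and Cdt1 kept their call whichever array was left out, with adjusted p of at most 0.0276. Mcm4 lost it in 5 of the 6 fits (all but that without wild type 1), Mcm6 in 4 (without wild type 2 or 3, or knockout 1 or 2), and Mcm2 and Mcm7 in 3 (without wild type 2, or knockout 1 or 2). Rrm1 lost it without knockout 2. Over these fits the change was −0.83 to −0.44 for Mcm6, −0.74 to −0.48 for Mcm7, −0.66 to −0.39 for Mcm2, −0.41 to −0.25 for Mcm4 and −0.73 to −0.44 for Rrm1.

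In mitosis, all 3 tested centromere and kinetochore genes fell. Cenpa, the histone H3 variant that marks the centromere, read 10.55, 10.50 and 11.18 in wild type and 9.42, 9.36 and 9.80 in the knockout. Wild type 3 stood above the other wild-type arrays, and the groups did not overlap. Cenpa was 2.32-fold lower (change −1.21, SE 0.19, limma adjusted p = 0.00078). Cenpe, a kinetochore motor, read 10.25, 9.77 and 9.84 in wild type and 8.96, 8.73 and 9.05 in the knockout. Its groups lay well apart. Cenpe was 2.06-fold lower (change −1.04, SE 0.14, limma adjusted p = 0.000382). Birc5 (survivin), a subunit of the chromosomal passenger complex, read 9.72, 9.92 and 9.76 in wild type and 8.82, 8.72 and 9.26 in the knockout. Birc5 was 1.83-fold lower (change −0.87, SE 0.14, limma adjusted p = 0.00118), and all 3 of its probes were lower.

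Cdc20, the activator of the anaphase-promoting complex, read 10.39, 10.72 and 10.65 in wild type and 9.46, 9.18 and 9.63 in the knockout. The gap between the groups was wider than the range within either. Cdc20 was 2.25-fold lower, at 10.59 ± 0.18 against 9.42 ± 0.23 (SD, n = 3; change −1.17, SE 0.14, limma adjusted p = 0.000149), the lowest adjusted p of the members. Ube2c, the ubiquitin-conjugating enzyme of the same complex, was above background on no array.

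All 3 mitotic kinases fell. Plk1 (Polo-like kinase) read 10.01, 10.37 and 10.13 in wild type and 9.12, 8.86 and 9.44 in the knockout. Plk1 was 2.04-fold lower (change −1.03, SE 0.16, limma adjusted p = 0.000636). Aurka, the Aurora kinase of the spindle poles, read 9.34, 9.33 and 9.52 in wild type and 8.71, 8.70 and 8.71 in the knockout. As with Mcm4, the 3 knockout arrays hardly differed. Aurka was 1.61-fold lower (change −0.69, SE 0.10, limma adjusted p = 0.000441). Aurkb, the Aurora kinase of the chromosomal passenger complex, changed by −0.48 (limma adjusted p = 0.0249) and lost its call without wild type 2, knockout 1 or knockout 2.

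Mki67 and Top2a, which act on the structure of chromosomes, both fell. Mki67, the gene of the proliferation marker Ki-67, read 9.87, 10.10 and 9.98 in wild type and 8.75, 8.80 and 9.36 in the knockout. Knockout 3 lay between the other knockout arrays and wild type. Mki67 was 2.02-fold lower (change −1.01, SE 0.16, limma adjusted p = 0.000874). Top2a, DNA topoisomerase II alpha, read 9.19, 9.72 and 9.26 in wild type and 8.30, 8.43 and 8.76 in the knockout. Its groups did not overlap. Top2a was 1.85-fold lower (change −0.89, SE 0.16, limma adjusted p = 0.00223).

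The core mitotic engine was measured only in part. Cdk1, whose promoter above holds all 3 motifs, read 9.78, 10.21 and 10.26 in wild type and 9.70, 9.81 and 9.95 in the knockout. The groups overlapped at wild type 1. Its change of −0.26 did not pass (SE 0.14, limma adjusted p = 0.161). Foxm1, a transcription factor of mitotic genes, changed by −0.59 (limma adjusted p = 0.0012), and Cdc25c, a phosphatase that activates Cdk1, by −0.41 (limma adjusted p = 0.0074). The cyclin genes Ccna2 and Ccnb2 were above background on no array.

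Of the spindle motors and their partners, Kif23 fell (−0.68, limma adjusted p = 0.0074) and Tpx2, a microtubule-binding activator of Aurka, did not pass (−0.08, limma adjusted p = 0.649). Neither tested gene of the spindle checkpoint passed, with Mad2l1 at −0.21 (limma adjusted p = 0.138) and Bub1b at −0.03 (limma adjusted p = 0.865). Bub1, Kif11 and Kif20a were above background on no array. Leaving out 1 array gave 11 to 13 lower mitosis genes, and Aurkb was the only 1 of the 12 that lost its call in any of these fits.

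Replication and mitosis genes were set side by side. The median level of the 11 replication genes was 9.18, 9.71 and 9.44 on wild-type arrays and 8.75, 8.59 and 9.13 on knockout arrays. That of the 16 mitosis genes was 9.36, 9.59 and 9.49 on wild-type arrays and 8.78, 8.73 and 9.01 on knockout arrays. In both lists every knockout array lay below every wild-type array, with a narrower margin in replication. The median change was −0.60 for replication and −0.68 for mitosis, and the median levels changed by −0.62 and −0.64. These levels had an SD between arrays of 0.27 and 0.14 (pooled over the groups). Both lists were read on the same arrays, so these SDs are not the error of a gap between the lists. That gap was not tested. A called fall of at least 1 log2 unit was seen in 1 of 11 replication genes (Mcm5) and 5 of 16 mitosis genes (Cenpa, Cdc20, Cenpe, Plk1 and Mki67). Among all 11782 named genes 958 had such a fall.

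The G1 regulators had the smallest median change of the 3 lists (−0.36). Ccnd1 (cyclin D1), which drives entry into the cycle, read 11.84, 11.90 and 11.56 in wild type and 11.13, 11.00 and 11.68 in the knockout. Knockout 3 lay above wild type 3, so the groups overlapped. Ccnd1 changed by −0.49 (SE 0.18, limma adjusted p = 0.0494), and the call was lost without wild type 1, wild type 2, knockout 1 or knockout 2. Ccne1 (cyclin E1), which acts at the start of replication, read 7.83, 7.77 and 7.95 in wild type and 7.46, 7.32 and 7.70 in the knockout. Its groups did not overlap. Ccne1 changed by −0.36 (SE 0.12, limma adjusted p = 0.0402), a call that ended in 5 of the 6 fits that left out an array (all but that without knockout 3). Cdkn1a (p21), an inhibitor of cyclin-dependent kinases, read 11.71, 11.97 and 11.73 in wild type and 11.77, 11.62 and 11.77 in the knockout. Its groups overlapped and the change of −0.08 did not pass (SE 0.11, limma adjusted p = 0.576).

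Probes of one gene did not always give the same call. Of the 44 tested probes 25 were lower, against 17.7% of all tested probes, 0 were higher and 19 did not pass. In 10 genes more than 1 probe was tested. All probes were lower in Mcm7 and Birc5, none passed in Tyms and Cdkn1a, and the calls differed in the other 6. The probe with the highest mean, by which each gene was represented, had the lowest change in 9 of the 10 genes, Cdkn1a being the exception. With the mean of a gene's tested probes instead, 20 members were lower (22.8% of all named genes) and the median change was −0.51. Ccnd1 and Mcm6 lost their call there.

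Cenpa had the widest gap between probes. Its second probe read 7.04, 7.06 and 7.18 in wild type and 6.84, 6.81 and 6.96 in the knockout. These groups did not overlap, yet the change of −0.22 did not pass (SE 0.10, limma adjusted p = 0.0968), with values close to the background bound of 6.80. The 2 other Cdc20 probes changed by −0.39 and −0.49 and did not pass (limma adjusted p = 0.163 and 0.068). Both read lowest on wild type 1 among the wild-type arrays (7.71 and 7.73), which the first probe of Cdc20 did by less. The second Mcm6 probe read 7.13, 7.60 and 7.50 in wild type and 7.23, 7.32 and 7.67 in the knockout, with the highest value on knockout 3. Its change was −0.00 (SE 0.15, limma adjusted p = 0.983).

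Ccnd1 had 4 tested probes, and 1 was called. The others changed by −0.29, −0.39 and +0.09 (limma adjusted p = 0.113, 0.0508 and 0.67), the only gene whose probes differed in sign. The second Rrm2 probe, above background on 3 arrays, read 6.62, 7.06 and 7.18 in wild type and 6.53, 6.59 and 7.01 in the knockout. Its change of −0.24 did not pass (limma adjusted p = 0.283). Cdc25c read 9.38, 9.46 and 9.47 in wild type and 9.11, 8.98 and 8.99 in the knockout on the called probe. On the other it read 8.23, 8.84 and 9.01 against 8.26, 8.40 and 8.41, where wild type 1 lay as low as the knockout (change −0.34, limma adjusted p = 0.164).

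**Figure D3:**
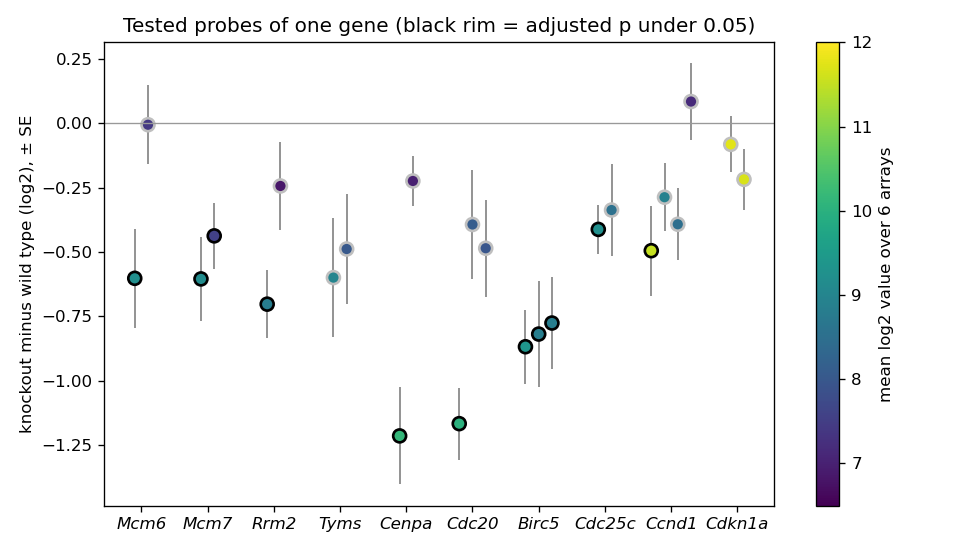
Change of each tested probe (knockout minus wild type, log2, with its SE) for the 10 genes with more than 1 tested probe, coloured by the probe's mean value over the 6 arrays. A black rim marks an adjusted p under 0.05. Cenpa, Cdc20 and Mcm6 show the widest gaps between the brightest probe and the others.

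The arrays of a genotype did not contribute alike. Knockout 3 was the highest knockout array in 28 of the 30 genes, against 40% of all named genes. Knockout 2 was the lowest in 24, against 40.4%. Among wild-type arrays, wild type 2 was the highest in 20 genes (35.1% of all named genes) and wild type 1 the lowest in 20 (34%). In replication knockout 3 was the highest and knockout 2 the lowest in all 11 tested genes, and wild type 2 was the highest in 10. In mitosis knockout 3 was the highest in 14 of 16, and wild type 2 in 8. Knockout 3 reached the lowest wild-type value in 10 genes (Bub1b, Ccnd1, Cdc6, Cdk1, Cdkn1a, Mad2l1, Mcm3, Mcm6, Tpx2 and Tyms). Knockout 1 reached it in 4 genes and knockout 2 in 3. Without knockout 3, 23 members were lower (23.2% of all named genes) and their median change was −0.71. Without knockout 2, 14 were lower (18.5% of all named genes) and the median was −0.51.

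Each beadchip held arrays of both genotypes, and the beadchips share no array. On beadchip 1 the wild-type arrays have the earlier date and the knockout array the later. Genotype and date can therefore not be told apart on beadchip 1, whereas all arrays of beadchip 2 have the later date. All 30 changes were negative on both beadchips, as were 39% of those of all named genes. The median change was −0.69 on beadchip 1 and −0.52 on beadchip 2. The changes on the beadchips had a Pearson r of 0.787 across the 30 genes, which are not independent replicates, and of 0.941 across all named genes. Mcm5 changed by −1.42 on beadchip 1 and −1.19 on beadchip 2, Cdc20 by −1.10 and −1.25 and Cenpa by −1.11 and −1.59. Aurkb (−0.78 and −0.16) and Ccnd1 (−0.74 and −0.22) differed more. Beadchip 1 holds 1 knockout array and beadchip 2 holds 1 wild-type array, so a fit within either takes the spread from the other genotype's 2 arrays, with 1 residual degree of freedom. It called 6 genes lower within beadchip 1 (10.1% of all named genes) and 4 within beadchip 2 (11.3%). With beadchip as a block in the fit of all 6 arrays, 18 members were lower (21.2% of all named genes). Of the 22 calls 17 were kept, and Mcm2, Mcm4, Mcm6, Aurkb and Ccnd1 did not pass (limma adjusted p of 0.0515 to 0.0944), while Tyms passed (−0.71, limma adjusted p = 0.0477). A sex by genotype interaction passed in 0 of all 19546 probes in limma's fit (0 of the 30 genes at an unadjusted p under 0.05). That fit has 2 residual degrees of freedom and 1 array in 2 of its 4 groups, so it says little about whether the change differs by sex.

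**Figure D4:**
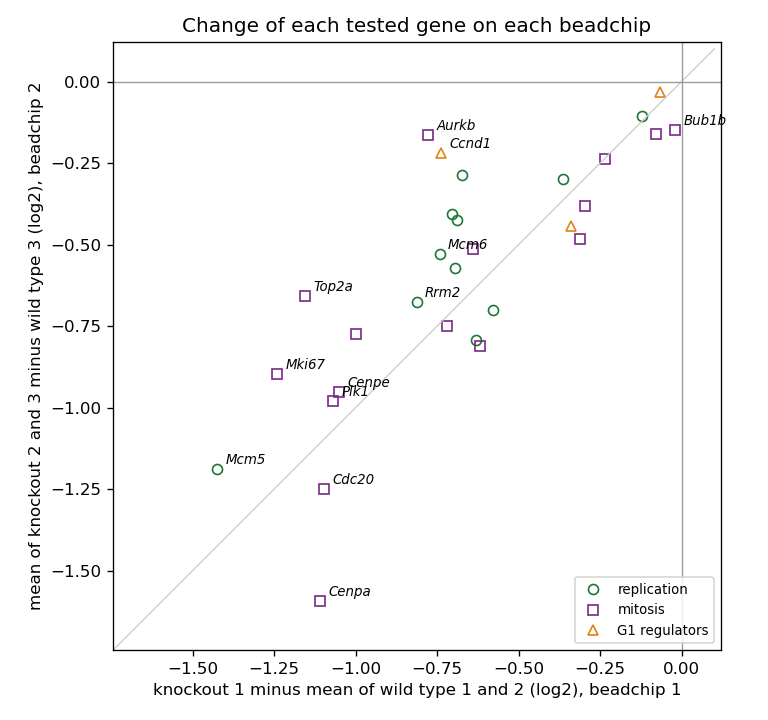
Change of each of the 30 tested genes (log2) on beadchip 1 (horizontal, knockout 1 minus the mean of wild type 1 and 2) and beadchip 2 (vertical, mean of knockout 2 and 3 minus wild type 3). The grey diagonal marks equal changes. All points lie below 0 on both axes, and Mcm5, Cdc20 and Cenpa lie farthest from 0.

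Other genes of the same pathways were counted from lists chosen with results of these data known. Of 36 tested further replication genes 14 (38.9%) were lower and 2 (5.56%) higher, with a median change of −0.26. Those with the largest changes were Mcm10 (−0.97, above background on 1 knockout array), which helps activate the helicase, the chromatin assembly subunits Chaf1b (−0.87) and Chaf1a (−0.62), and Lig1 (−0.80), the ligase of lagging-strand fragments. The 2 that rose were Pola2 (+0.53), a subunit of DNA polymerase alpha, and the origin recognition subunit Orc3 (+0.29), both named because so few rose. The limma adjusted p of these genes lay between 0.000451 (Mcm10) and 0.0369 (Orc3).

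Of 35 tested further mitosis genes 15 (42.9%) were lower and 2 (5.71%) higher, with a median of −0.28. The 4 largest changes were in the cytokinesis genes Anln (−1.40, SE 0.13) and Prc1 (−1.28, SE 0.12), and in Cdca3 (−1.06) and Cdca8 (−0.90), the latter a subunit of the chromosomal passenger complex. Anln read 10.42, 10.62 and 10.53 in wild type and 8.96, 9.01 and 9.39 in the knockout, so the change of Anln exceeded that of every member. Zwint, a kinetochore protein (+0.45, limma adjusted p = 0.0155), and Pttg1, securin (+0.57, limma adjusted p = 0.0445, with overlapping groups), rose and were named for the same reason as above.

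Among 26 tested further G1 and E2F regulators 6 were lower and 4 higher (median −0.18). Cdkn1c (p57), an inhibitor of cyclin-dependent kinases, changed by −0.68, and Skp2, which directs such inhibitors to degradation, by −0.67. Cdc25a, a phosphatase that activates Cdk2, changed by −0.66, and E2f7, a repressor of the E2F family that was above background on 1 knockout array, by −0.58. The 4 that rose were Tfdp1, the DNA-binding partner of E2F factors (+0.57), the kinase inhibitor Cdkn2c (+0.42), and Rbl1 (+0.31) and Rbl2 (+0.30), relatives of the retinoblastoma protein. Of 19 tested further p53 targets 3 were lower and 6 higher (median +0.14). The kinase genes Plk3 (−1.43) and Plk2 (−0.91), the receptor gene Eda2r (+0.85) and Pmaip1 (Noxa, −0.68) had the largest changes. The call of Pmaip1 had a limma adjusted p of 0.0495 with overlapping groups. In the G1 and E2F list 23.1% were lower and 15.4% higher, and in the p53 list 15.8% were lower and 31.6% higher, against 23.1% and 18.3% of all named genes.

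Markers of other cells that a sort could hold were read beside these results. Of 9 tested thymocyte markers 3 (33.3%) were lower (Cd3g −1.01, Cd3d −0.61 and Zap70 −0.48) and 0 higher, against 23.1% and 18.3% of all named genes. Negative changes numbered 8 of 9 (47.6% of all named genes), with a median change of −0.29 (0.02 for all named genes). Cd3g read 9.00, 9.13 and 9.03 in wild type and 7.58, 8.08 and 8.46 in the knockout, with knockout 3 highest, as in most members. The median level of the 9 markers was 7.92 to 8.37 in wild type and 7.58 to 8.46 in the knockout, which overlap. Rag1, Rag2, Dntt and Themis were above background on no array.

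Of 6 tested dendritic cell and macrophage markers 3 were lower (Cd14 by −2.01, C1qa by −1.26, and Adgre1, at least 1.22-fold, as it was not well above background on any knockout array) and Zbtb46 was higher (+0.59). Lyz2 (+0.20) and Siglech (+0.30) did not pass, so 3 changes were negative and 3 positive, with a median change of −0.33. The median level of the 6 markers was 9.01 to 9.17 in wild type and 7.54 to 7.80 in the knockout, which do not overlap. On wild-type arrays that level lies between Cd14 and C1qa, which both fell, so it does not show a fall of the whole list. Clec9a, Fcgr1, Flt3, Itgam, Itgax and Xcr1 were above background on no array. Of 4 B cell markers 2 were lower and 2 higher, of 9 fibroblast and endothelial markers 2 and 3, of 4 cortical thymic epithelial markers 1 and 2, and of 2 erythroid markers 0 and 1. Among 13 mTEC markers 3 were lower (Aire −3.31, Krt5 −1.83 and Krt14 −0.70) and 2 higher (H2-Aa +0.45 and Tnfrsf11a +0.51). The other 8 did not pass. Krt5 fell by more than any member, and read 11.43, 10.99 and 10.86 in wild type and 9.20, 8.66 and 9.93 in the knockout. The part of these cell types in the lower level of the cell cycle genes was not tested.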

How the data were processed

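Total RNA of 6 samples of MHCIIhi mTECs was measured on Illumina bead arrays. The values used are log2 values that the authors deposited after normalization. BeadStudio and lumi are named in the submitters' processing notes, with no version. The background correction and the transform are not stated in labels or headers. Medians agreed across arrays at 6.55. Other tables hold 24 columns of values whose names match no sample label, and these were not used.

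A background bound was set on each array at the mode of all probes plus 3 SD of the values below it (6.80 on every array). Probes above it on at least 3 of 6 arrays were tested (19546 of 46619). Symbols came from the platform's probe annotation: 32782 probes had 1 symbol, 55 several and 13782 none, and the last 2 kinds stayed unnamed. The test was limma's moderated test (version 3.58.1, R 4.3.3), two-sided, with genotype as the only term, Benjamini-Hochberg adjustment over all tested probes and a threshold of 0.05. It was tested on simulated data. Having 3 arrays per group limits the precision. Sex was tested in a model of the 4 sex and genotype groups. Promoter windows were matched by symbol to RefSeq (GRCm38.p6) and searched for exact letters.

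The members and lists were chosen with earlier results of these data known. Per-array values are given for up to 8 called, non-overlapping genes with the largest changes in replication and in mitosis, for the G1 regulators, for genes whose probes differ in their call, and for Mki67, Pcna, Top2a and Cdk1. Of the other pathway lists the 4 called genes with the largest changes are named. The alternatives, 20 in all, were 3 scalings, 2 filters, the mean of a gene's probes, beadchip, replicate or sex as a term, single beadchips, the arrays with the later date label, 2 variance models and leaving out each array.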

Additional observations from a re-analysis of the deposited data

How the results depend on the processing

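Over 20 alternatives 0 members were called higher, and the member count stayed within 1.5 times of 22 in 16 of them. Housekeeping scaling gave 11 lower members, 2 lower replication genes and a mitosis median of −0.43 (22, 8 and −0.68 as reported). Over all tested probes the median change went from 0.10 to 0.35, because the median level of the 23 housekeeping genes was 0.25 lower in the knockout although their median change was 0.02. Lower and higher probes numbered 3462 and 4043 in the values reported, 2006 and 8466 with housekeeping scaling, and 4139 and 2347 with cyclic loess. Beadchip 1 alone gave 6 lower members (1 replication, 5 mitosis) and beadchip 2 alone 4 (0 replication, 4 mitosis), each with 1 array of a genotype and 1 residual degree of freedom. These fits assume that the lone array varies like the other group's. The 4 arrays with the later date label, of which 1 is wild type, gave a median member change of −0.57 against 0.04 for all named genes. All 30 member changes were negative on these arrays, against 46% of all named genes. Without a filter on dim probes the mitosis median was −0.45, since genes at background enter it. Leaving out 1 array gave 14 to 23 lower members (fewest without knockout 2), 3 to 9 replication genes and 11 to 13 mitosis genes. In these fits 18.5% (without knockout 2) to 23.2% (without knockout 3) of all named genes were lower.

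Among single genes, none of the 22 calls changed sign. Cdc20 and Cenpa kept their call in all 20 alternatives. The 5 uncalled genes that changed sign did so with housekeeping scaling, where Cdkn1a was +0.17, Bub1b +0.23, Mad2l1 +0.048, Tpx2 +0.17 and Cdc6 +0.14. Bub1b was also +0.0049 with sex as a covariate. Leaving out 1 array gave −0.0765 to +0.055 for Bub1b (positive without wild type 3 or knockout 1), and −0.1286 to +0.0025 for Cdkn1a and −0.2333 to +0.0176 for Tpx2 (both positive without wild type 2). The cause of the sign changes in the fits other than housekeeping scaling was not tested. Same-numbered samples had correlations of deviations of 0.203, −0.0596 and −0.0157, so the numbers were not taken as pairs. The replicate block gave 23 lower members (23% of all named genes), 21 of them shared with the 22. Signal over background limits the dim probes, and 8 of the 38 genes with a probe were above background on no array.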
